A study of Mus musculus with 12 samples.

Results

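The complement genes described here were 9 of the 54146 genes in the expression table, taken by an exact match of the gene name: C1qa, C1qb, C1qc, C2, C3, C4b, Cfb, Serping1 and C3ar1. All 9 were in the table once and all 9 were among the 13002 genes that reached 1 TPM (a level per transcript length, with every library brought to an equal sum) in at least 3 of the 12 libraries. C2 reached 1 TPM only in KO libraries, and Serping1 in 2 WT libraries besides, so both entered the tests through the KO groups in which they were high.

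Complement is a cascade of proteases and scaffold proteins that tags surfaces for uptake by phagocytes, draws in leukocytes and can perforate membranes. The classical route starts when C1q, a complex of the chains encoded by C1qa, C1qb and C1qc, binds a surface and activates the proteases C1r and C1s, which cleave C4 and C2 to make a convertase that cleaves C3. Factor B (Cfb) forms the C3 convertase of the alternative route, the C1 inhibitor (Serping1) blocks C1r and C1s, and the C3a receptor (C3ar1) reads the small fragment released from C3. In tissues C1q is a product mainly of macrophages and dendritic cells, whereas C3, C4, factor B and C1 inhibitor are also made by epithelial cells and fibroblasts.

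RNA came from D2A1 cells, a mouse mammary carcinoma line, that carried a doxycycline-inducible histone H2B-GFP and the membrane dye CellVue Claret, which is diluted by division, and that were recovered from lungs after tail vein injection. GFP-positive cells that kept the dye were sorted as dormant and GFP-positive cells without it as growing. They were taken in aliquots of 50 cells, 12 days after injection by the study's methods and 14 days by its results text. Hosts were female mice of 6 to 8 weeks. The labels call them WT or Tgfbr2 KO, and by the methods the KO hosts lacked Tgfbr2, a TGF-beta receptor, in cells that had expressed Cre from the lysozyme M (Lyz2) promoter, while the controls carried the floxed alleles. The 4 groups, called growing WT, growing KO, dormant WT and dormant KO below, held 3 libraries each, from 3 mice per group by the study. The column names place every WT library in batch 1 and every KO library in batch 2, so that in KO against WT the host and the batch cannot be told apart, whereas dormant and growing libraries of 1 host share a batch.

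The depth behind the values is unknown, since TPM keeps no read number, and the precision below is the spread of 3 libraries. Genes above 0 numbered 11325 to 13242 in dormant WT, 14770 to 15315 in dormant KO, 14352 to 14475 in growing WT and 13406 to 14063 in growing KO, with dormant WT replicate 2 the lowest. Of a list of epithelial and mammary carcinoma genes, Krt8 and Krt18 were present in every library and Cldn4 was listed at 0 throughout. Krt7 was listed at 0 in all WT libraries and was at 29.6 to 61.46 TPM in dormant KO. Epcam was at 0.16 TPM or less in both WT groups and at 0.27 to 5.34 TPM in dormant KO. Spp1 was at 1236 to 1509 TPM in dormant KO against 28980 to 39951 TPM in the other 9 libraries, and the lung epithelial transcript Sftpc was at 36571 to 39284 TPM in dormant KO against 41.2 to 423 TPM elsewhere, so the dormant KO libraries went against their label as mammary carcinoma cells in their most abundant transcripts. Tgfbr2 itself was at 0.14 to 11.09 TPM in dormant WT libraries and 2.19 to 11.48 TPM in dormant KO. The deletion lay in host cells and not in the sorted line, and these values are no check of the genotype.

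The 9 genes fell into 3 patterns. The C1q chains were high in dormant cells of both hosts. C2, C3, C4b, Cfb and Serping1 were high in dormant KO, intermediate in growing KO and near 0 or scattered in both WT groups. C3ar1 was low throughout, with its highest values in dormant WT.

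**Figure D1:**
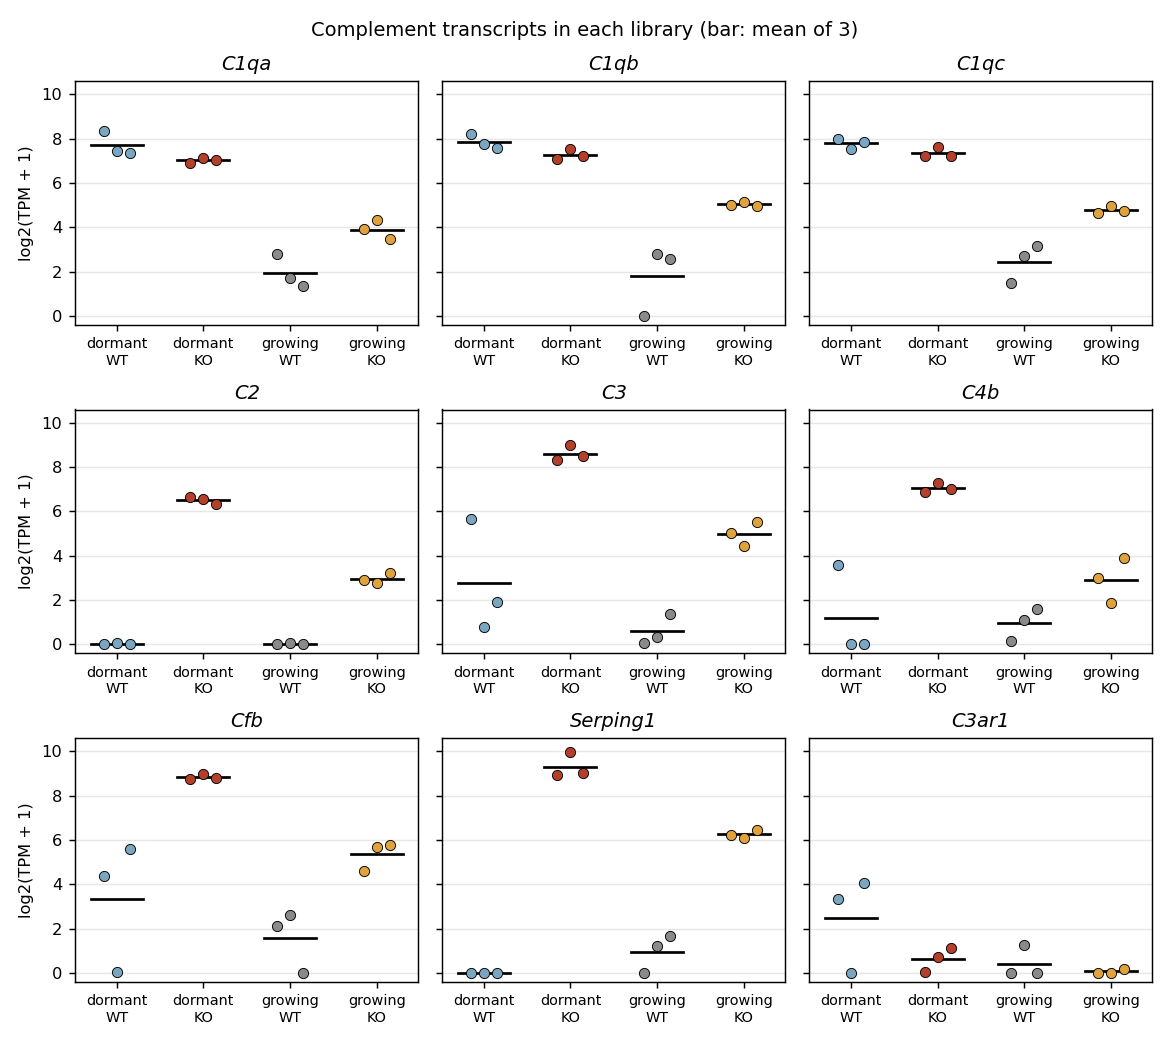
Level of each of the 9 complement genes in each library, as log2(TPM + 1), by group. Each point is 1 library and each bar the mean of 3 libraries. The C1q chains sit at 117.38 TPM or more in all 6 dormant libraries, whereas Serping1 is listed at 0 in the 3 dormant WT libraries and is at 492.27 TPM or more in the 3 dormant KO libraries.

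The number of members called in each comparison was read against the share of all genes called. Genes with an adjusted p of at most 0.05 by limma and a difference of 1 or more in log2(TPM + 1) were called. Dormant KO against dormant WT, the comparison of the study's main question, called 5 of 9 members higher (C2, C3, C4b, Cfb and Serping1) and 0 lower, where 12.9% of all genes tested were called higher and 9.39% lower. Those 5 were also the members whose dormant KO libraries all lay above all dormant WT libraries, a pattern shown by 18.6% of all genes. The median difference of the members was 5.51, and that of all genes was 0.17.

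Growing KO against growing WT called 4 of 9 members higher (Serping1, C1qb, C2 and C1qc), where 0.715% of all genes were called higher and 0.261% lower. The median difference was 2.94 over the members and 0.02 over all genes. In 8 of 9 members every growing KO library lay above every growing WT library, a pattern shown by 13.3% of all genes.

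Dormant WT against growing WT called 3 members higher, the C1q chains, where 1.85% of all genes were called higher and 5.67% lower. These 3 were also the only members whose ranges lay apart, with dormant WT above growing WT as in 7.22% of all genes. Dormant KO against growing KO called 7 members higher, where 8.31% of all genes were called higher and 9.48% lower, and left out Cfb and C3ar1. In 8 members, all but C3ar1, the dormant KO libraries lay above the growing KO libraries, as in 16.4% of all genes. The median differences of the members were 2.04 and 3.12, and those of all genes -0.35 and -0.32. The comparisons share groups, so their counts are not independent of each other.

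The interaction asked whether the dormant against growing difference was the same in both hosts. It called 2 members higher in KO (C2 and Serping1) and 3 lower (C1qa, C1qb and C1qc), where 6.18% and 3.91% of all genes were called in these directions. Both members called higher passed the filter only with KO libraries. So did 2 of the 5 called higher between dormant hosts, 2 of the 4 between growing hosts and 2 of the 7 in dormant KO against growing KO. The calls of C2 and Serping1 are therefore no support in these counts.

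**Figure D2:**
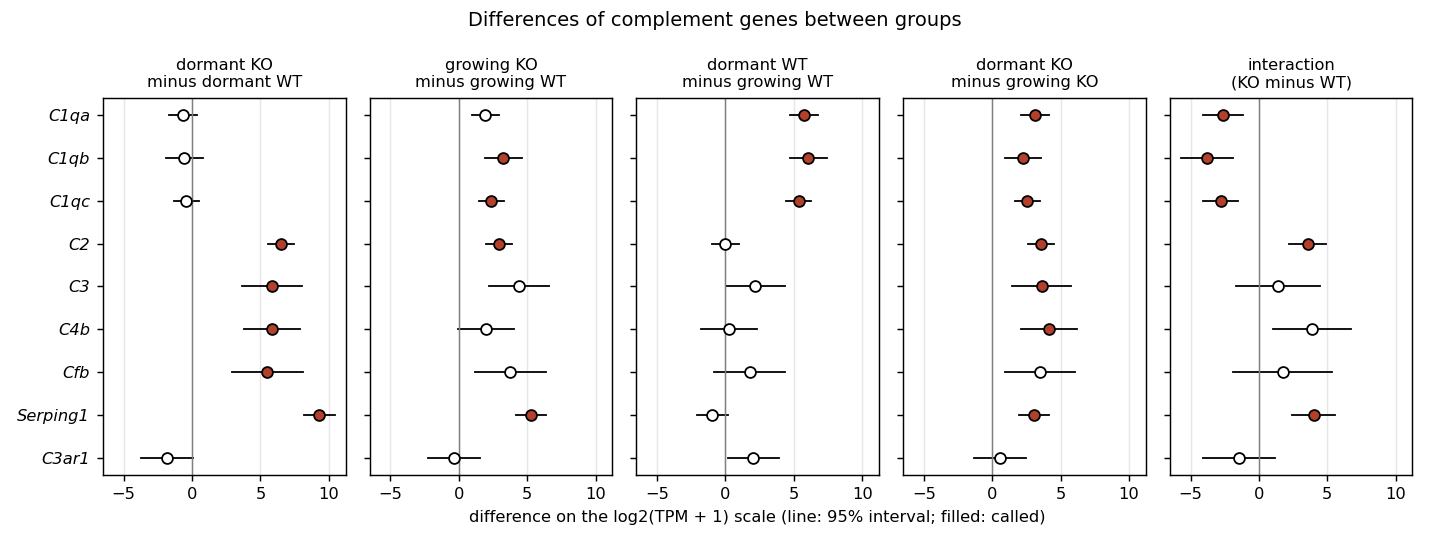
Difference of each complement gene in the 5 comparisons on the log2(TPM + 1) scale, with the 95% interval of the limma fit as a line and called differences filled. The C1q chains are unfilled in dormant KO against dormant WT and filled to the left of 0 in the interaction; the Serping1 point in the first panel is set by the pseudocount, because all 3 dormant WT libraries are listed at 0.

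The genes of the 3 C1q chains lie side by side on the minus strand of chromosome 4 (GRCm38), C1qa (ENSMUSG00000036887.5) at chr4:136895917-136898803, C1qc (ENSMUSG00000036896.5) at chr4:136889804-136893065 and C1qb (ENSMUSG00000036905.8) at chr4:136880129-136886187. Of the 9 members, 4 (C1qb, C1qc, C3 and C3ar1) matched an entry in a table of RefSeq promoters. The 250 bases before the RefSeq start (GRCm38.p6, minus strand, written 5′ to 3′) are shown for C1qb and C1qc because these neighbours were both high in the dormant libraries and low in the growing ones. Capitals mark GAGGAA, the core bound by the myeloid factor PU.1, on either strand. The C1qb window is chr4:136886201-136886450 and the C1qc window is chr4:136892915-136893164, which partly overlaps the longer gene model of GENCODE.
C1qb: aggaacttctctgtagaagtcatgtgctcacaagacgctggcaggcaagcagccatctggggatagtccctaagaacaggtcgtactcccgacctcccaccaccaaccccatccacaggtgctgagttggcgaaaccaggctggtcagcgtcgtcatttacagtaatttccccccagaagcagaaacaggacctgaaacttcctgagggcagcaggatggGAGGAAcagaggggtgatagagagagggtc
C1qc: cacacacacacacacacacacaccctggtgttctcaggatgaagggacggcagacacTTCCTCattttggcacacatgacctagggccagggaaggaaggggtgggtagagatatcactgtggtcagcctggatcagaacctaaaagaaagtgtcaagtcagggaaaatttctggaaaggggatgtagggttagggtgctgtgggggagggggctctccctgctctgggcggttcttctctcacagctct
The match lay 30 to 25 bases before the start in C1qb and, as TTCCTC on the shown strand, 193 to 188 bases before it in C1qc. These letters occur on either strand in 23.3% of all 32851 windows of this length, so the match is a description of the sequence and not a site.

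C1qa, the A chain, measured 322.79, 171.74 and 161.39 TPM in replicates 1, 2 and 3 of dormant WT. The dormant KO libraries had 117.38, 140.88 and 129.21 TPM. Growing WT had 5.99, 2.25 and 1.59 TPM and growing KO 14.12, 18.86 and 10.08 TPM. All 6 dormant libraries thus lay above all 6 growing libraries, and all dormant WT libraries lay above all dormant KO libraries.

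C1qb, the B chain, was at 296.11, 214.32 and 189.44 TPM in dormant WT libraries, compared with 134.84, 186.1 and 145.9 TPM in dormant KO libraries. It was listed at 0, 5.98 and 4.88 TPM in growing WT libraries, compared with 31.11, 34.07 and 29.88 TPM in growing KO libraries. The dormant WT range again lay above the dormant KO range and the growing KO range lay above that of growing WT.

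C1qc, the C chain, was at 249.93, 185.32 and 231.53 TPM in dormant WT libraries, compared with 149.34, 195.36 and 146.28 TPM in dormant KO libraries. Growing WT had 1.82, 5.42 and 7.79 TPM and growing KO 24.31, 30.61 and 25.97 TPM. Here the dormant ranges of both hosts overlapped, and the growing KO libraries lay above the growing WT libraries.

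The dormant cells of the 2 hosts were not separated by the test in any C1q chain. By limma the log2 difference of dormant KO minus dormant WT was -0.68 ± 0.461 (SE; 95% interval -1.7 to 0.33; adjusted p 0.33) for C1qa, -0.57 ± 0.616 (-1.92 to 0.78; adjusted p 0.561) for C1qb and -0.44 ± 0.415 (-1.35 to 0.47; adjusted p 0.497) for C1qc. C1qa and C1qb were the only members whose dormant KO libraries all lay below the dormant WT libraries, a pattern shown by 13% of all genes. Across the settings tried the difference ran from -0.87 to -0.17 for C1qa, from -0.71 to -0.05 for C1qb and from -0.57 to 0.08 for C1qc. Under median-ratio scaling the C1qc difference was 0.08.

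Against growing cells the C1q chains rose in both hosts. In WT hosts the log2 difference of dormant minus growing was 5.75 ± 0.461 (limma, adjusted p 2.61e-05) for C1qa, 6.06 ± 0.616 (adjusted p 0.000177) for C1qb and 5.35 ± 0.415 (adjusted p 1.98e-05) for C1qc. In KO hosts it was 3.12 ± 0.461 (limma, adjusted p 0.000632), 2.25 ± 0.616 (adjusted p 0.0238) and 2.55 ± 0.415 (adjusted p 0.00118). The C1qb call in KO hosts was lost on leaving out any 1 of the 6 KO libraries (adjusted p 0.0594 to 0.0799), with a pseudocount of 0.1 (adjusted p 0.255), with no filter (adjusted p 0.0552) and with array weights (adjusted p 0.0543), which give libraries far from their group less weight.

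The difference between dormant and growing cells was smaller in KO hosts for each C1q chain. The interaction was -2.63 ± 0.653 (limma, adjusted p 0.0251) for C1qa, -3.81 ± 0.872 (adjusted p 0.0167) for C1qb and -2.8 ± 0.587 (adjusted p 0.0105) for C1qc. With array weights none of these 3 was called (adjusted p 0.1, 0.151 and 0.0775). The C1qa call was also lost with median-ratio scaling (adjusted p 0.0558) and without dormant KO replicate 1 or 3, growing WT replicate 2 or 3, or growing KO replicate 1 or 2 (adjusted p 0.056 to 0.0683), and the C1qb call with a pseudocount of 0.1 (adjusted p 0.102).

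Among growing cells C1qb rose by 3.24 ± 0.616 (limma, adjusted p 0.0283) and C1qc by 2.36 ± 0.415 (adjusted p 0.0178) in KO over WT hosts. C1qa differed by 1.94 ± 0.461 (limma, adjusted p 0.0977) and was not called, except with array weights (adjusted p 0.00941). The C1qb and C1qc calls were lost on leaving out any 1 of the growing KO libraries (adjusted p 0.101 to 0.116 and 0.069 to 0.0901), the C1qc call also without growing WT replicate 2 (adjusted p 0.0527), and the C1qb call also without dormant KO replicate 1 (adjusted p 0.0513), with a replicate block (adjusted p 0.0594), with a pseudocount of 0.1 (adjusted p 0.183) or with no filter (adjusted p 0.0647).

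The proportions of the 3 chains were steady in dormant cells. C1qa made up 27.7 to 37.2% of the summed C1q TPM in dormant WT libraries and 27.0 to 30.7% in dormant KO. C1qb made up 32.5 to 37.5% and 33.6 to 35.6%, and C1qc 28.8 to 39.8% and 34.7 to 37.4%. In growing KO, C1qa had a share of 15.3 to 22.6% and C1qb of 40.8 to 45.3%, and growing WT libraries were too low in C1q for the shares to be steady (C1qa 11.2 to 76.7%). Across the 12 libraries, which share groups and batches, the Pearson r between chains on the log2 scale was 0.904 to 0.986.

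C2 and C4b code for the components that C1s cleaves, and both lie on chromosome 17 of GRCm38 on the minus strand. C2 (ENSMUSG00000024371.14) is at chr17:34862604-34898265, and its neighbour Cfb lies next to it. C4b (ENSMUSG00000073418.4) is at chr17:34728380-34743882. A read-through gene, Gm20547, overlaps C2 and Cfb on the same strand and was at 0.57 TPM or less in every library. C4b has a close copy, C4a, whose longest transcript matched that of C4b at 95.9% of aligned bases, so RSEM's division of reads between them is uncertain. C4a was at 0.44 TPM or less in dormant KO and dormant WT, and at 6.79 TPM in growing WT replicate 3.

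C2 was listed at 0, 0.03 and 0 TPM in dormant WT libraries, compared with 99.15, 93.12 and 79.83 TPM in dormant KO libraries. Growing WT had 0, 0.04 and 0 TPM and growing KO 6.39, 5.83 and 8.37 TPM. No WT library exceeded 0.04 TPM and no KO library fell below 5.83 TPM, where host and batch are the same split. C2 passed the filter only with KO libraries, so its calls here are no support for a difference. By limma C2 rose in dormant KO over dormant WT by 6.5 ± 0.439 (adjusted p 1.97e-06) and in growing KO over growing WT by 2.94 ± 0.439 (adjusted p 0.00665). Dormant KO exceeded growing KO by 3.55 ± 0.439 (limma, adjusted p 0.000197), while dormant and growing WT differed by 0 ± 0.439 (95% interval -0.97 to 0.96). The interaction of 3.56 ± 0.621 was called (limma, adjusted p 0.00431). With dormant WT at or near 0, the size of the dormant difference is set by the pseudocount, and it was 9.69 with a pseudocount of 0.1 and 4.25 with one of 5. With a pseudocount of 5 the growing KO call was lost (1.24, adjusted p 0.0906).

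C4b was at 10.86, 0 and 0 TPM in dormant WT libraries, compared with 114.82, 153.63 and 127.56 TPM in dormant KO libraries. Growing WT had 0.12, 1.12 and 2.03 TPM and growing KO 7.02, 2.6 and 13.78 TPM. Dormant WT replicate 1 thus carried C4b within the growing KO range, while replicates 2 and 3 were listed at 0. C4b rose in dormant KO over dormant WT by 5.86 ± 0.929 (limma, adjusted p 0.000762), which was 7.04 without dormant WT replicate 1, and over growing KO by 4.13 ± 0.929 (adjusted p 0.00845), a call lost with a pseudocount of 0.1 (adjusted p 0.105). The growing KO against growing WT difference of 1.96 ± 0.929 (limma, adjusted p 0.71) and the interaction of 3.89 ± 1.31 (adjusted p 0.0893) were not called, and the interaction was called without dormant WT replicate 1 (5.08, adjusted p 0.00462), with a pseudocount of 5 (3.22, adjusted p 0.0122), with median-ratio scaling (4.45, adjusted p 0.0414) and with quantile normalization (4.03, adjusted p 0.0486).

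C3 is the component on which all routes converge, and factor B supplies the protease that amplifies its cleavage. C3 (ENSMUSG00000024164.15) lies at chr17:57203970-57228136 and Cfb (ENSMUSG00000090231.10) at chr17:34856374-34862518, both on the minus strand of GRCm38. The 250 bases before the RefSeq start of C3 (GRCm38.p6, chr17:57228137-57228386, minus strand, 5′ to 3′) are shown because C3 was among the most abundant members in dormant KO. Capitals mark a match to TTGCNNAA, a form of the C/EBP motif, 45 to 38 bases before the start.
C3: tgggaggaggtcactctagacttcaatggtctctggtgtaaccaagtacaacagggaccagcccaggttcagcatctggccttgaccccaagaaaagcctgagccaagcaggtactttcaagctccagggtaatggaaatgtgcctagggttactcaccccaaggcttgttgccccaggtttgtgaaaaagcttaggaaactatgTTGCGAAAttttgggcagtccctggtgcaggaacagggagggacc
TTGCNNAA occurs on either strand in 9.56% of all windows. The interferon motifs TTCNNNGAA (7.02% of windows) and GAAANNGAA (7.13%) were not matched in the windows of C1qb, C1qc, C3 or C3ar1, and TATAAA (12.4%) was matched in that of C3ar1 only. No 2 of these matches overlapped, and the motifs were chosen with results of these data known.

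C3 was at 49.2, 0.74 and 2.72 TPM in dormant WT libraries, compared with 318.24, 513.93 and 356.18 TPM in dormant KO libraries. Growing WT had 0.04, 0.27 and 1.58 TPM and growing KO 31.3, 20.56 and 45.45 TPM. The KO libraries lay above the WT libraries in each state, but dormant WT replicate 1 was above the growing KO range. C3 rose in dormant KO over dormant WT by 5.82 ± 0.996 (limma, adjusted p 0.00125), which was 7.26 without dormant WT replicate 1 and 4.83 without replicate 2. Growing KO exceeded growing WT by 4.4 ± 0.996 (limma, adjusted p 0.0761), which was not called. It was called with array weights (adjusted p 0.00021), with quantile normalization (adjusted p 0.00959) and without dormant WT replicate 1 (adjusted p 0.0019) or 2 (adjusted p 0.0231). All groups share 1 estimate of spread. Dormant KO exceeded growing KO by 3.61 ± 0.996 (limma, adjusted p 0.0247), a call lost on leaving out any 1 of the KO libraries other than growing KO replicate 3 (adjusted p 0.0619 to 0.0897), with a pseudocount of 0.1 (adjusted p 0.0912) and with no filter (adjusted p 0.0658). The interaction, 1.42 ± 1.41, was not called (limma, adjusted p 0.635) and became 2.85 (adjusted p 0.0311) without dormant WT replicate 1. Across the settings tried it ran from 0.19 to 2.85.

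Cfb was at 19.84, 0.02 and 47.34 TPM in dormant WT libraries, compared with 427.8, 506.57 and 441.57 TPM in dormant KO libraries. Growing WT had 3.3, 5.08 and 0 TPM and growing KO 23.39, 49.62 and 53.1 TPM. The dormant WT libraries spread from near 0 to within the growing KO range, and in each state every KO library lay above every WT library. Cfb rose in dormant KO over dormant WT by 5.51 ± 1.18 (limma, adjusted p 0.0051), with 3.85 without dormant WT replicate 2 and 6.64 without replicate 3. The differences of 3.77 ± 1.18 between growing KO and growing WT (limma, adjusted p 0.281) and of 3.5 ± 1.18 between dormant KO and growing KO (adjusted p 0.0592) were not called. Both were called without dormant WT replicate 2 (adjusted p 0.0146 and 0.00229) and with array weights (adjusted p 0.00488 and 0.0103). The latter difference was also called with a pseudocount of 5, with either other scaling and without dormant WT replicate 3 (adjusted p 0.00428 to 0.0279).

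Serping1 codes for the C1 inhibitor, the serpin that inactivates C1r and C1s, and lies at chr2:84765387-84775444 on the minus strand of GRCm38 (ENSMUSG00000023224.12). It was listed at 0 in all 3 dormant WT libraries and was at 492.27, 990.28 and 522.22 TPM in dormant KO. Growing WT had 0, 1.34 and 2.13 TPM and growing KO 74.38, 67.36 and 85.17 TPM. No WT library exceeded 2.13 TPM and no KO library fell below 67.36 TPM. With all dormant WT libraries listed at 0, no fold is given for the dormant hosts, whose difference was called by limma (adjusted p 3.91e-07). Growing KO exceeded growing WT by 5.3 ± 0.505 (limma, adjusted p 0.000503) and dormant KO exceeded growing KO by 3.06 ± 0.505 (adjusted p 0.00131). The interaction was also called (limma, adjusted p 0.00467). Across the settings tried, the highest adjusted p for Serping1 was 5.61e-05 between dormant hosts, 0.00697 between growing hosts and 0.0355 for the interaction. Serping1 passed the filter only with KO libraries, so its calls here are no support for a difference. With a pseudocount of 0.1 the call of dormant KO over growing KO was lost (adjusted p 0.0623).

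C3ar1 codes for the receptor of C3a and lies at chr6:122847138-122856161 on the minus strand of GRCm38 (ENSMUSG00000040552.8). It was listed at 9.08, 0 and 15.59 TPM in dormant WT libraries, compared with 0.04, 0.64 and 1.21 TPM in dormant KO libraries. Growing WT had 0, 1.4 and 0 TPM and growing KO 0, 0 and 0.14 TPM. Only 2 libraries, both dormant WT, exceeded 1.4 TPM. The dormant KO minus dormant WT difference was -1.82 ± 0.857 (limma, 95% interval -3.7 to 0.06, adjusted p 0.153) and was not called. Without dormant WT replicate 2, the library listed at 0, it was -3.05 (adjusted p 0.0016) and was called. Across the settings tried this difference ran from -3.05 to -1.01. Over the 12 libraries, which share groups and batches, its Pearson r with C3 on the log2 scale was -0.02.

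The order of the levels, which TPM allows between genes because it is per length, differed between groups. In dormant KO it ran Serping1 (668 ± 279 TPM, SD, n = 3), Cfb (459 ± 42.1), C3 (396 ± 104), C1qc (164 ± 27.5), C1qb (156 ± 27.0), C4b (132 ± 19.8), C1qa (129 ± 11.8), C2 (90.7 ± 9.88) and C3ar1 (0.63 ± 0.585). The libraries of Serping1, Cfb and C3 overlapped from neighbour to neighbour, as did those of C1qc, C1qb, C4b and C1qa, whereas gaps separated C3 from C1qc, C1qa from C2 and C2 from C3ar1. In dormant WT the C1q chains overlapped at the top (C1qb 233 ± 55.8, C1qc 222 ± 33.3 and C1qa 219 ± 90.3 TPM) and no other member exceeded 49.2 TPM in any library. By mean TPM Serping1 ranked 252nd among all genes in dormant KO, Cfb 358th and C3 408th.

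The balance of the genes turned over between hosts. C1q made up 89.9 to 99.9% of the summed TPM of the 9 genes in dormant WT and 18.8 to 21.7% in dormant KO. The sum of C2, C3, C4b, Cfb and Serping1 was 0.79 to 79.9 TPM in dormant WT, 1452 to 2258 TPM in dormant KO, 3.46 to 7.85 TPM in growing WT and 142 to 206 TPM in growing KO. The C1q sum was 571 to 869, 402 to 522, 7.81 to 14.3 and 65.9 to 83.5 TPM in the same order. Together the 9 genes took 0.0572 to 0.0958% of all TPM in dormant WT libraries and 0.185 to 0.278% in dormant KO.

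In such pooled cells, fewer cells of a type and less RNA per cell cannot be told apart, and transcripts of other cell types were present in the sorted libraries. Of 15 macrophage markers, 5 were at 1 TPM or more in all 3 dormant WT libraries and 9 in all 3 dormant KO libraries, and 2 and 4 in growing WT and growing KO. Their summed level was 1056 to 1585 TPM in dormant WT, 3421 to 3517 in dormant KO, 40.8 to 84.4 in growing WT and 137 to 181 in growing KO, most of it from Lyz2. Among defining markers, Adgre1 (F4/80) was at 9.17, 0 and 0.77 TPM in dormant WT libraries and 0.37, 0.04 and 4.36 TPM in dormant KO, and Pparg was listed at 0 outside dormant KO. The summed macrophage markers thus followed the C1q chains from growing to dormant, but between dormant hosts the marker sum was higher in KO while the C1q sum was lower. By single genes the markers were divided, since 7 of 15 had a lower mean in dormant KO (Adgre1, Mrc1, Marco, Siglecf, Mertk, Ms4a7 and Cx3cr1), and of the 11 tested 3 were called higher (Chil3, Pparg and Lyz2) and 0 lower by limma, where 12.9% and 9.39% of all genes were called. Pparg passed the filter only with KO libraries. Mrc1, the mannose receptor, was at 27.75, 16.63 and 31.19 TPM in dormant WT libraries, whereas the dormant KO libraries had 9.59, 7.02 and 20.82 TPM. The ratio of the C1q sum to Lyz2 was 0.406 to 1.11 in dormant WT and 0.138 to 0.177 in dormant KO, and ran the other way between growing hosts, with 0.17 to 0.549 in WT and 0.487 to 0.92 in KO. Lyz2 is also made by alveolar type 2 cells and neutrophils, whose markers are given below. The part of these cells in the C1q values was not tested.

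**Figure D3:**
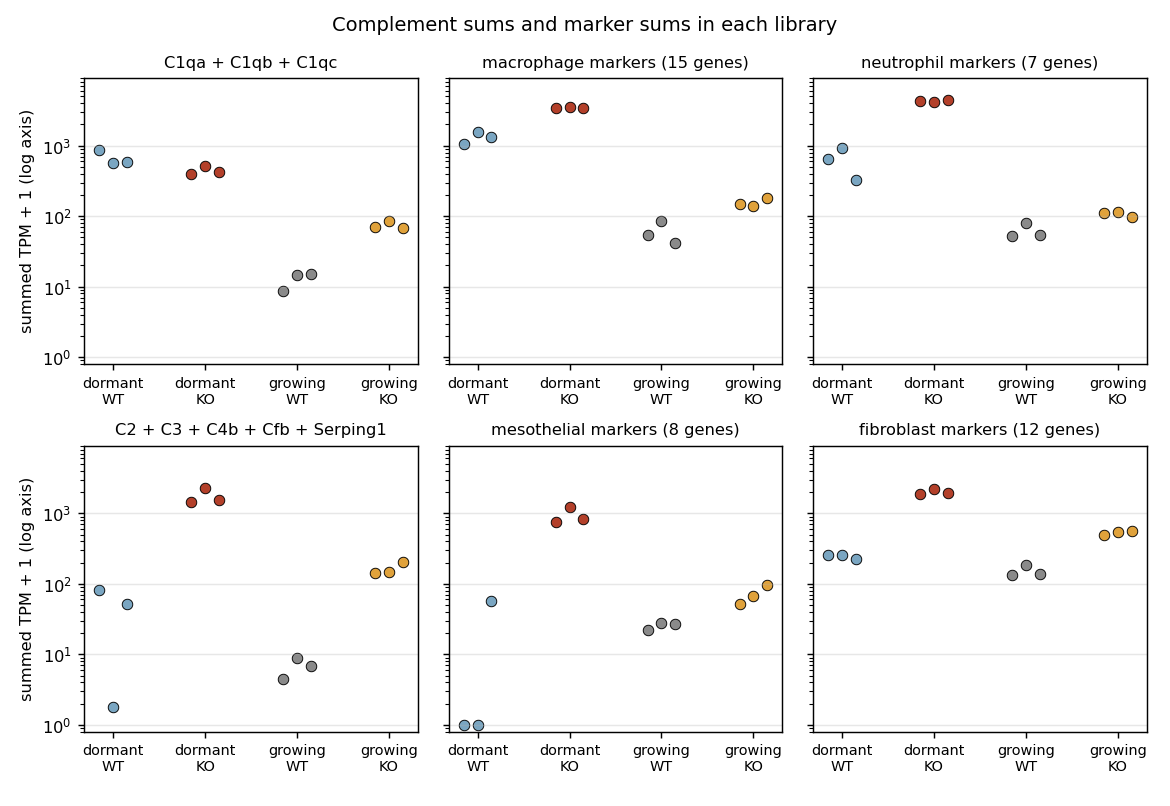
Summed TPM + 1 on a log axis, in each library, for the C1q chains, for C2, C3, C4b, Cfb and Serping1, and for 4 marker lists. Each point is 1 library; the marker sums of dormant KO are the highest of the 4 groups in each marker panel, as is the sum of the 5 complement genes, whereas the C1q sum is highest in dormant WT.

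The summed levels of the mesothelial, fibroblast, alveolar type 2, endothelial and neutrophil lists were highest in dormant KO, like C2, C3, C4b, Cfb and Serping1, whereas the sum of the epithelial and mammary carcinoma list was lowest there. The calls of marker genes below stand beside 12.9% of all genes called higher and 9.39% called lower between dormant hosts, and of the 64 markers tested over all lists 38 passed the filter only with KO libraries, among them 28 of the 40 called higher. Of 8 mesothelial markers, 6 were listed at 0 in every dormant WT library and 8 were called higher in dormant KO by limma, and their sum was 0 to 55.6 TPM in dormant WT, 753 to 1241 in dormant KO, 21.1 to 26.4 in growing WT and 51.2 to 95.1 in growing KO. Mesothelium lines the lung surface, and its defining transcript Upk3b was listed at 0 in all 6 WT libraries and was at 84.45 to 134.53 TPM in dormant KO. Fibroblast markers summed to 227 to 257, 1907 to 2198, 133 to 183 and 486 to 565 TPM in the same order of groups, with 6 of 12 called higher between dormant hosts. This list was divided, since 5 of the 12 (Lum, Pdgfra, Pdgfrb, Col13a1 and Gsn) had a lower mean in dormant KO than in dormant WT. Alveolar type 2 markers summed to 77.5 to 141, 40207 to 42496, 55.9 to 97.6 and 465 to 472 TPM, with 8 of 10 called higher and Abca3 lower in mean.

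Endothelial markers summed to 11.3 to 64.9, 627 to 719, 5.55 to 9.08 and 31.4 to 43.4 TPM in the same order, with 6 of 8 called higher between dormant hosts. Of 8 neutrophil markers, 7 were in the table, and they summed to 326 to 921, 4141 to 4441, 52.0 to 78.0 and 96.6 to 115 TPM, with 4 of the 5 tested called higher and Cxcr2 lower in mean. The epithelial and mammary carcinoma list summed to 33440 to 41246, 2156 to 2767, 33102 to 35394 and 30484 to 34381 TPM, most of it Spp1, with 5 of the 10 tested called higher and 2 lower (Krt8 and Spp1). The part of these cells in the 5 complement genes was not tested.

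The rest of the pathway was read from a list of 46 other complement genes, of which 22 could be tested. Dormant KO against dormant WT called 13 of them higher and 0 lower by limma, where 12.9% and 9.39% of all genes were called, and 15 had an unadjusted p under 0.05, against 35.3% of all genes. Of the 22, 12 reached 1 TPM in fewer than 3 WT libraries and so passed the filter only with KO libraries, among them 10 of the 13 called, so this count is no support for a difference of the list. The other 3 called were Clu, C1ra and C1s1. The 10 were C1rl, C1s2, C1rb, Colec11, Cd55, Cd59b, Hc, C7, Cd93 and Itgax. Their single calls and p-values given below are no support for a difference either. Growing KO against growing WT called 0 (1 with an unadjusted p under 0.05, against 7.53% of all genes; median 0.24; 0.715% of all genes called higher), and dormant WT against growing WT called 0 (5 with an unadjusted p under 0.05, against 23.9% of all genes; median -0.04; 1.85% of all genes called higher). Dormant KO against growing KO called 9 higher and 1 lower (C1qbp), where 8.31% and 9.48% of all genes were called. The interaction called 5 higher (Clu, Colec11, Cd59b, Hc and Itgax), where 6.18% of all genes were called higher. Of these, 8 of the 9 and 4 of the 5 called higher had passed the filter only with KO libraries, so these counts too are no support.

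The proteases that work with C1q were highest in dormant KO. C1ra, a C1r protease, was at 0, 4.7 and 0 TPM in dormant WT libraries, compared with 65.84, 87.9 and 76.91 TPM in dormant KO libraries, a rise of 5.44 ± 0.752 (limma, adjusted p 3e-04). C1s1, a C1s protease, was at 0, 7.28 and 0.1 TPM against 55.44, 62.97 and 81.16 TPM, a rise of 5 ± 0.826 (adjusted p 0.000997). Dormant WT libraries thus had each C1q chain at 161.39 TPM or more with C1ra and C1s1 at 7.28 TPM or less, and replicate 2, the lowest of them in C3 and Cfb, was the highest of them in both proteases. The minor copies C1rl, C1s2 and C1rb were also called higher, at 1.78 to 7.83 TPM in dormant KO, and reads of C1ra and C1rb, or of C1s1 and C1s2, may be divided between near-identical copies.

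In the lectin route Colec11, a soluble lectin that binds sugars on surfaces, was at 27.05, 25.83 and 27.33 TPM in dormant KO, with 0 listed for the other 9 libraries (limma, adjusted p 2.33e-06 between dormant hosts). Masp1, a lectin route protease, ran the other way, with 29.64, 0 and 35.75 TPM in dormant WT libraries and 0.15, 0.02 and 0.16 TPM in dormant KO, and was not called (-3.23 ± 1.1, limma, adjusted p 0.0545). Fcna, a ficolin, was at 9.0 to 46.72 TPM in every library.

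Among the fluid-phase regulators, Clu, clusterin, which binds terminal complexes, had 361.66, 546.12 and 399.68 TPM in the dormant KO libraries, whereas the dormant WT libraries had 59.77, 0.29 and 0 TPM. It was at 49.66 to 97.41 TPM in growing cells of both hosts. It rose between dormant hosts by 6.65 ± 1.18 (limma, adjusted p 0.00164).

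On the membrane side, Cd55, which speeds the decay of convertases, was listed at 0 in all dormant WT libraries and was at 44.37, 31.73 and 8.85 TPM in dormant KO (limma, adjusted p 0.00118). Cd59b, which blocks the membrane attack complex, was at 0, 0 and 0.28 TPM and at 13.03, 10.88 and 38.08 TPM (adjusted p 0.000182). Cr1l, the rodent regulator Crry, was at 21.58 to 243.21 TPM in every library and did not differ by the test (0.41 ± 0.669, limma, adjusted p 0.719).

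Of the terminal components, C8a, C8b, C8g and C9 were listed at 0 in all dormant KO libraries. Hc, which codes for C5, was at 11.03, 8 and 3.65 TPM in dormant KO, with 0 listed for each dormant WT library (limma, adjusted p 0.000278), and C7 was at 0.55, 1.64 and 4.2 TPM, also with 0 listed for each dormant WT library (adjusted p 0.0321). For C6, which did not pass the filter, the dormant KO libraries had 0.77, 0.04 and 4.81 TPM. Factor D (Cfd), the protease that cleaves factor B, was listed at 0 in every library but dormant KO replicate 3, at 6.99 TPM, and factor I (Cfi) in every library but the same one, at 5.59 TPM. Among receptors, Cd93 and Itgax, a chain of complement receptor 4, were called higher in dormant KO (limma, 3.19 ± 0.798, adjusted p 0.0122, for Cd93), at 16.84 to 22.65 and 2.22 to 8.52 TPM, and C5ar1, the C5a receptor, was at 21.56, 5.14 and 0.3 TPM in dormant WT libraries and 3.87, 0.12 and 0.75 TPM in dormant KO, which overlapped and was not called (-1.41 ± 0.852, limma, adjusted p 0.271).

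**Figure D4:**
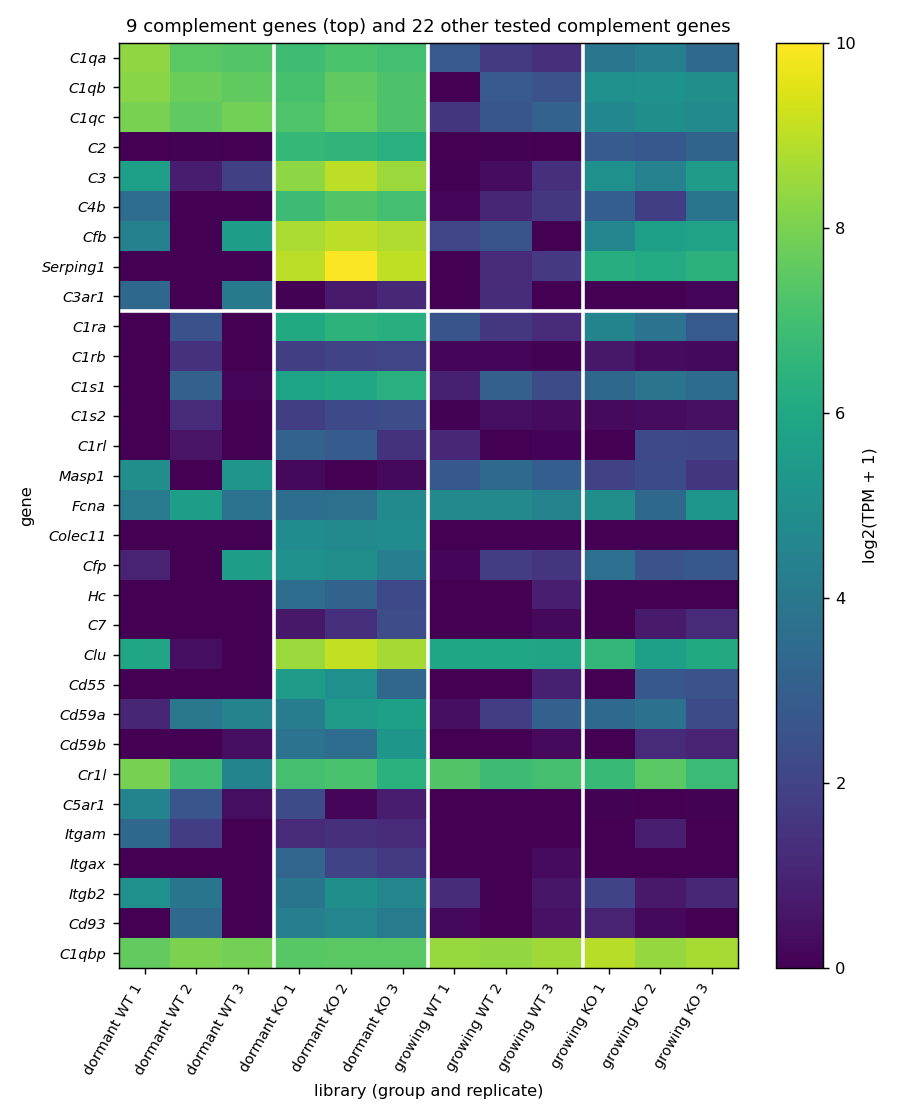
Levels of the 9 complement genes (above the white line) and the 22 other tested complement genes in each of the 12 libraries, coloured by log2(TPM + 1) from 0 to 10, with white lines between groups. The C1q rows are bright in all 6 dormant columns, and C1ra, C1s1, Colec11 and Clu are brightest in the 3 dormant KO columns.

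Interferon gamma induces several complement genes in other settings, and the study is about a lung rich in it, so its usual response genes were set beside the members. Of 16 such genes 14 were tested, of which Irf8 and Cxcl9 passed the filter only with KO libraries, and dormant KO against dormant WT called 3 higher (Irf8, Gbp4 and Cxcl10) and 0 lower, where 12.9% and 9.39% of all genes were called, with a median difference of 0.06. Growing KO against growing WT called 0 (4 with an unadjusted p under 0.05 by limma, against 7.53% of all genes; median 0.57; 0.715% of all genes called higher). Dormant WT against growing WT called 1 lower (Cxcl10), dormant KO against growing KO called 2 lower (Psmb8 and Gbp3), and the interaction called 1 lower (Tap1), where 5.67%, 9.48% and 3.91% of all genes were called lower. Their summed level was 513 to 768 TPM in dormant WT, 619 to 876 in dormant KO, 939 to 1012 in growing WT and 1396 to 1531 in growing KO. Psmb8, an immunoproteasome subunit, made up 31.9 to 65.4% of this sum. The part of interferon gamma in the complement values was not tested.

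The genes most like the members over the 12 libraries, by Pearson r on the log2 scale, differed between the patterns. Most like the mean of the C1q chains were Fcer1g (r = 0.98), Fcgr2b (0.972) and Ctss (0.971), which code for an Fc receptor subunit, an inhibitory Fc receptor and cathepsin S. Fcer1g was at 384.74, 472.59 and 399.7 TPM in dormant WT libraries and 594.97, 685.17 and 714.67 TPM in dormant KO, the reverse of the order of C1qa and C1qb between dormant hosts. Most like C3 were Lyz1 (0.974), Pdpn (0.968) and Rnf130 (0.966). Lyz1, a lysozyme on the alveolar type 2 marker list, was at 28.58, 0.06 and 0.65 TPM in dormant WT. Like C3 it was highest there in replicate 1. Most like Serping1 were Nkain4 (0.987), Plac8 (0.985) and Bmyc (0.984), all listed at 0 in the 3 dormant WT libraries and at 49.91 TPM or more in each dormant KO library. Among the members, C2 and Serping1 had an r of 0.97, C3 and C4b of 0.956, and C1qa and Serping1 of 0.169. These values describe 12 libraries that share groups, batches and cell mixtures.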

How the data were processed

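The deposited values are TPM, which the authors estimated with RSEM from reads trimmed with Cutadapt and aligned with STAR to mm10. The submitters' processing notes give bcl2fastq 2.20, cutadapt 1.18, STAR 2.5.2b and RSEM 1.3.3. The methods name Smart-seq2 libraries, but the labels a TruSeq mRNA kit. Use of strand is not given in the sources used here. The table's other 30 per-sample columns matched no label and were left out.

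The analysis used log2(TPM + 1), which understates differences of low genes. The 13002 genes at 1 TPM or more in at least 3 libraries were fitted over all 12 libraries with 1 mean per group (limma 3.58.1, eBayes with trend, R 4.3.3; 8 residual degrees of freedom), with 5 two-sided contrasts and Benjamini-Hochberg adjustment over all genes of each contrast. Array weights, other pseudocounts (0.1 and 5), no filter, 2 scalings, a replicate block and leaving out each library were tried. The scripts were tested on simulated data. All 9 members are named, with the 3 genes most like the C1q mean, C3 and Serping1, and the 12 genes of the pathway list with the largest called difference between dormant hosts. C7 and the uncalled genes of the lists were named after their values were seen. The members and all lists were chosen with earlier results of these data known, and 1 gene each of the complement and interferon lists was left out of all list counts and is not reported here. Coordinates are from GENCODE M21 (GRCm38), whose identifiers and versions matched for all 9.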

Additional observations from a re-analysis of the deposited data

Results flagged for a closer look

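In 5 members the dormant minus growing difference was not the same in KO and WT hosts by limma's interaction term. It was smaller in KO hosts for C1qa (-2.63, adjusted p 0.0251), C1qb (-3.81, adjusted p 0.0167) and C1qc (-2.8, adjusted p 0.0105). It was larger in KO hosts for C2 (3.56, adjusted p 0.00431) and Serping1 (4.01, adjusted p 0.00467), where the last value depends on the pseudocount because dormant WT is listed at 0. These 2 genes passed the filter on low values only with KO libraries, so their calls are no support for a difference. For each C1q chain, all dormant libraries lay above all growing libraries in both hosts, so it was the size and not the direction that differed. Host and batch cannot be told apart in these terms.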

How the results depend on the processing

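Between dormant hosts 5 members were called under each scaling, pseudocount, filter and weighting tried, and 5 to 6 on leaving out 1 library. In growing KO against growing WT, 7 members were called with array weights and 2 to 6 on leaving out 1 library, with 2 when any growing KO library was left out and 6 without dormant WT replicate 2. In dormant WT against growing WT, leaving out 1 library gave 3 to 6, with 6 without dormant WT replicate 2 (C3, Cfb and C3ar1 added, at adjusted p 0.0463, 0.0138 and 0.00378). In dormant KO against growing KO, 3 were called with a pseudocount of 0.1 (C1qb, C3, C4b and Serping1 lost) and 5 to 8 on leaving out 1 library. The interaction called 2 with array weights and 4 to 7 on leaving out 1 library. The causes were not tested.

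No called difference turned direction. Of the differences not called, C1qc between dormant hosts turned to 0.08 with median-ratio scaling, and C4b in dormant WT against growing WT turned to -0.79 with a pseudocount of 0.1 and ran from -0.95 (without dormant WT replicate 1) to 0.84, with -0.15 without growing WT replicate 1. C3ar1 in growing KO against growing WT ran from -0.57 to 0.06 on leaving out 1 library, the latter without growing WT replicate 2, and was -0.88 with a pseudocount of 0.1.

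Same-numbered libraries had an r of -0.014 to 0.021 between their deviations, and values this small cannot show whether the numbers pair the samples. In dormant KO against growing KO these were 0.021, 0.019 and 0.011, and differently numbered libraries had -0.018 to -0.001. In dormant WT against growing WT the same-numbered values were -0.01, -0.012 and 0.014. The replicate block ended 1 call, C1qb in growing KO against growing WT (3.24, adjusted p 0.0594), and left 3 members called there. Median-ratio scaling moved the median of all genes between dormant hosts from 0.17 to 0.52, and the share of calls that were higher from 57.9 to 74.1%, with 50.1% after quantile normalization. Depth is unknown, so zeros cannot be told from undetected transcripts.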
